A study of Mus musculus with 4 samples.

Results

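The 10 genes described here encode the 5 subunits of the transcription factor NF-kB (Nfkb1, Nfkb2, Rel, Rela and Relb) and 5 of its inhibitors and regulators (Nfkbia, Nfkbid, Nfkbie, Tnfaip3 and Bcl3). They were chosen by symbol from a list of the family, with earlier results of these data known. Of the 10, 10 were found among the 16338 rows of each deposited table and among the 16102 genes tested. Mouse T cells carrying the T cell receptor TRP1high or TRP1low were stimulated for 48 h by B cells loaded with the M9 or the K8 peptide, then sorted from the co-culture for RNA sequencing. The 4 libraries were TRP1high with M9, TRP1high with K8, TRP1low with M9 and TRP1low with K8, and the time of 48 h, the B cell stimulators and the sort were common to all of them. Each group held 1 library, so the differences below have no replicate check. The strain, sex and age of the donor mice, the peptide concentrations, and any unstimulated cells are not stated in the labels used here.

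NF-kB subunits pair into dimers that bind kappa B sites in DNA. Inhibitor of kappa B (IkB) proteins hold these dimers in the cytoplasm until T cell receptor and costimulatory signals lead to the breakdown of the inhibitor. Nfkb1 and Nfkb2 encode precursors that are processed to DNA-binding subunits without a transactivation domain, while Rel, Rela and Relb encode the subunits that carry this domain. Nfkbia and Nfkbie encode classical IkB proteins, Nfkbid and Bcl3 encode nuclear IkB-like proteins, and Tnfaip3 encodes a ubiquitin-editing enzyme that turns the pathway off. Several of these genes are known NF-kB targets themselves, which makes the pathway limit its own activity.

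Promoter sequences are shown for the 5 members whose peptide difference in TRP1high and in TRP1low lay at least 1 apart on the log2 scale, because kappa B sites are the DNA element through which the family acts. Each window runs from 250 bases before to 30 bases after a transcription start annotated by RefSeq on GRCm38.p6, the same assembly as mm10, and is printed along the gene's strand. Capitals mark matches, on either strand, to the classical 10-base NF-kB consensus.
Rel: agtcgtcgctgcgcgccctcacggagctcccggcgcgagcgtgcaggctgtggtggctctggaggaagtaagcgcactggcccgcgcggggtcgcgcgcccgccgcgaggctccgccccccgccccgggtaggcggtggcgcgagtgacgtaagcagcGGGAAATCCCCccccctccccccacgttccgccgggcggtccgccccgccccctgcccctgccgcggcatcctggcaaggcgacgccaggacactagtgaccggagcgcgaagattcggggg
Nfkbia: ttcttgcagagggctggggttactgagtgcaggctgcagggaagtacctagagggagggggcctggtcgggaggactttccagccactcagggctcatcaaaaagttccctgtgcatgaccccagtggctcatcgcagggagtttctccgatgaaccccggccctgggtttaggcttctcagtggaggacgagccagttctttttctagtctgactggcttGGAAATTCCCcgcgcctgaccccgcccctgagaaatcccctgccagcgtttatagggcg
Nfkbie: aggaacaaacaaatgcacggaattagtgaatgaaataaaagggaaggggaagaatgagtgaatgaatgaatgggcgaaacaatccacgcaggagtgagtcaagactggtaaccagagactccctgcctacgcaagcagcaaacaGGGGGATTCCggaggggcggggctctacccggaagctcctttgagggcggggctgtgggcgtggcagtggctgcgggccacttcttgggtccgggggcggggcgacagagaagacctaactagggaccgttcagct
Tnfaip3: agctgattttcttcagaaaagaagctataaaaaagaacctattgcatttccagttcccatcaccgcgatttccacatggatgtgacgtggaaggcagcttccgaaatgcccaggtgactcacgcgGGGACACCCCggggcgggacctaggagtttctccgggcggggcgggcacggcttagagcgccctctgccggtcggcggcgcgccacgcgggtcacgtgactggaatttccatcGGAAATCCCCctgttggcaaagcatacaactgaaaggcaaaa
Bcl3: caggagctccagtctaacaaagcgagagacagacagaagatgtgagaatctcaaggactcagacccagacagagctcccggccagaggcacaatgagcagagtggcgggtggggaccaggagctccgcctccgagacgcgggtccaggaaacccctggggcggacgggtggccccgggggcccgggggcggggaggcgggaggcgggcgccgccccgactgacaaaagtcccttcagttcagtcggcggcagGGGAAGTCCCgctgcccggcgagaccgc
These windows lie at chr11:23770940-23771219 (minus strand) for Rel, chr12:55492618-55492897 (minus) for Nfkbia, chr17:45555450-45555729 (plus) for Nfkbie, chr10:19015381-19015660 (minus) for Tnfaip3 and chr7:19822726-19823005 (minus) for Bcl3. The capitals in Rel are 2 matches shifted by 1 base, GGGAAATCCC, which fits the consensus on the gene's strand, and GGAAATCCCC, which fits it on the opposite strand and is spelled here along the gene's strand. They begin 92 and 91 bases before the start. Tnfaip3 had GGGACACCCC at 125 bases and GGAAATCCCC at 12 bases before the start, and the match of Bcl3, GGGAAGTCCC, began 3 bases after it.

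RefSeq windows were found for 8 of the 10 members, and Nfkb1 and Relb had none in the table used. Of the 8 members, 7 had at least 1 match in a window (Nfkb2, Rel, Nfkbia, Nfkbid, Nfkbie, Tnfaip3 and Bcl3), and Rela had none. By window, 9 of the 13 windows of these members had a match. Tnfaip3 had a second window, not printed above, without a match. Among all 27025 symbols in the table, 8.98% had a match in a window, as did 7.94% of the 32851 windows. A match is a string of letters, and binding at it was not measured here.

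Estimated reads per library came to 41.5 M for TRP1high with M9, 40.5 M for TRP1high with K8, 40.3 M in TRP1low with M9 and 29.6 M in TRP1low with K8, and genes at 0 numbered 633 to 769 in the first 3 and 1205 in TRP1low with K8. The labelled cell type was checked against 11 markers of CD8 T cells, all of which were above a floor of 3 reads in every library. Cd8a stood at log2 14.33 to 15.14 and Cd3e at 11.92 to 13.35, while Cd4 was at 0 in TRP1high with M9 and at most 4.73 elsewhere. Members had between 175 and 15745 estimated reads per library, so counting error was small beside most differences. Counting intervals of folds are 95% exact (Clopper-Pearson) intervals on estimated reads and cover counting error only.

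The subunits and the inhibitors reached their highest levels in different libraries. Of the 5 subunits, 4 (Nfkb2, Rel, Rela and Relb) were highest in TRP1high with M9, where 24.2% of all genes tested had their highest value. All 5 inhibitors among the members (Nfkbia, Nfkbid, Nfkbie, Tnfaip3 and Bcl3) were highest in TRP1low with K8. Of all genes tested, 31.2% had their highest value there. IkB genes outside the members differed from this. Nfkbib, Nfkbiz and Nfkbil1 were highest in TRP1high with M9 (11.57, 7.27 and 9.39), and Ankrd42 in TRP1low with K8 (4.07). Nfkb1 was the exception among the subunits, highest in TRP1high with K8 (22.3% of all genes) and lowest in TRP1low with K8 (31.6%). The lowest value was in TRP1high with K8 for 5 members (Nfkb2, Rel, Relb, Nfkbie and Tnfaip3, beside 20.4% of all genes) and in TRP1low with M9 for 4 (Rela, Nfkbia, Nfkbid and Bcl3, beside 17.8%). For Nfkb2, Nfkbie, Rela and Nfkbia, however, the lowest library was within counting error of the next, so which library was lowest is not settled. Of the 10 members, 0 were lowest in TRP1high with M9 (30.2% of all genes) and 0 were highest in TRP1low with M9 (22.2%). Across the 4 libraries the members ranged over 0.54 (Rela) to 2.38 (Tnfaip3) on the log2 scale. Values in this and the following paragraphs are log2(normalized count + 1) as deposited, unless a fold is named, which is a ratio of normalized counts.

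**Figure D1:**
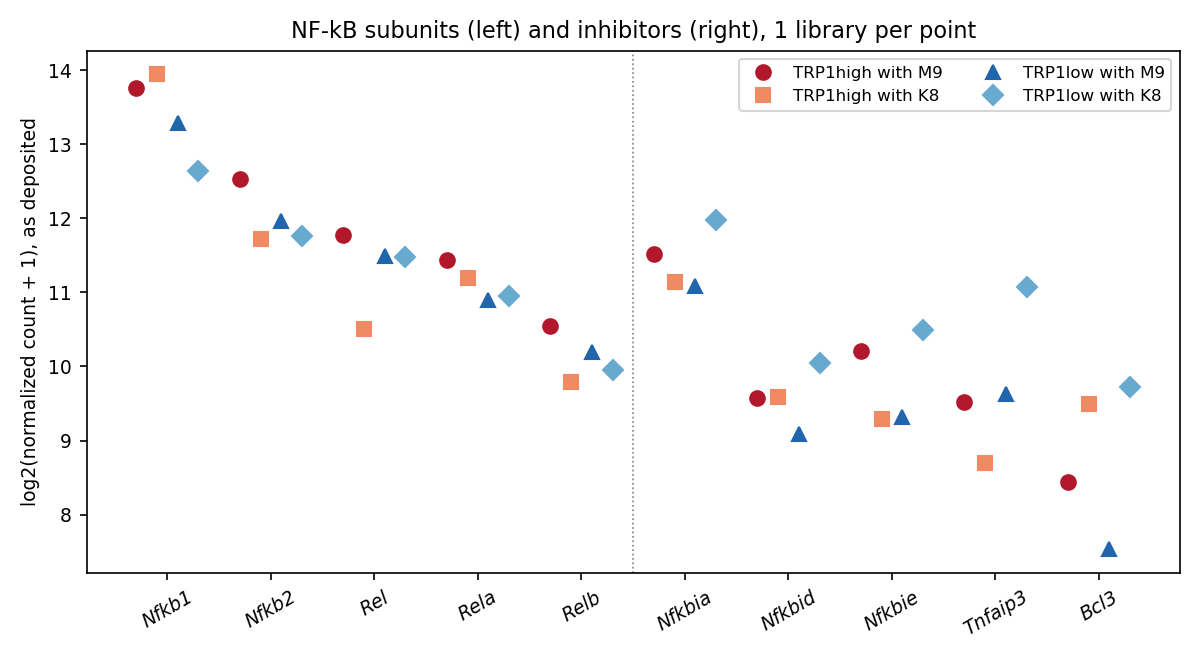
Level of each NF-kB subunit (left of the dotted line) and inhibitor (right) in log2(normalized count + 1), with 1 point for each of the 4 libraries. The 5 inhibitors have their highest point in TRP1low with K8, and Nfkb2, Rel, Rela and Relb have theirs in TRP1high with M9.

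Rel, which encodes c-Rel, differed most between peptides among the subunits. It stood at log2 11.78 in TRP1high with M9, 10.50 in TRP1high with K8, 11.50 in TRP1low with M9 and 11.48 in TRP1low with K8. TRP1high with K8 was thus apart from the other libraries, and the TRP1low libraries differed by no more than counting error (1.01-fold, interval 0.957 to 1.07). In TRP1high, Rel was 2.43-fold higher with M9 than with K8 (2.28 to 2.58). Its gene lies on chromosome 11 (23736847 to 23770970, mm10, minus strand).

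Nfkb2 and Relb, which encode the partners of the non-canonical dimer, had the most similar profiles of any pair of members. Nfkb2 (chromosome 19, 46304320 to 46312385, plus strand) stood at 12.53 in TRP1high with M9, 11.72 in TRP1high with K8, 11.96 in TRP1low with M9 and 11.76 in TRP1low with K8. Relb (chromosome 7, 19606217 to 19629438, minus strand) stood at 10.55, 9.79, 10.19 and 9.95 in the same libraries. Both were highest in TRP1high with M9 and lowest in TRP1high with K8, though for Nfkb2 the K8 libraries were within counting error of each other. After each gene was centred on its mean, their root mean square distance over the 4 libraries was 0.085. With M9 against K8, Nfkb2 was 1.76-fold higher in TRP1high (1.68 to 1.83) and 1.14-fold higher in TRP1low, and Relb was 1.70-fold (1.56 to 1.85) and 1.19-fold (1.08 to 1.31) higher. A span of 299 bases at the end of Nfkb2 overlaps Psd on the opposite strand, which was at log2 6.41 to 8.13, and whether reads were assigned by strand is not stated in the labels used here.

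Nfkb1, the most abundant subunit transcript, was ordered by receptor. It stood at 13.76 in TRP1high with M9, 13.94 in TRP1high with K8, 13.29 in TRP1low with M9 and 12.63 in TRP1low with K8. Both TRP1high libraries were above both TRP1low libraries, by 1.38-fold with M9 (1.35 to 1.42) and 2.48-fold with K8 (2.40 to 2.56). Between peptides its differences had opposite signs, at -0.18 in TRP1high and 0.66 in TRP1low. Nfkb1 lies on chromosome 3 (135584655 to 135691547, minus strand). Rela, the most widely expressed activating subunit (chromosome 19, 5637483 to 5648130, plus strand), varied least, at 11.44 in TRP1high with M9, 11.19 in TRP1high with K8, 10.90 in TRP1low with M9 and 10.95 in TRP1low with K8. It too was higher in both TRP1high libraries than in the TRP1low libraries.

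Tnfaip3 had the widest range of the 10 members. It stood at 9.52 in TRP1high with M9, 8.69 in TRP1high with K8, 9.62 in TRP1low with M9 and 11.07 in TRP1low with K8. The 2 libraries with M9 differed by no more than counting error (TRP1high over TRP1low 0.932-fold, interval 0.841 to 1.03), while the 2 libraries with K8 held the lowest and the highest value. With K8, Tnfaip3 was 5.21-fold lower in TRP1high than in TRP1low (4.67 to 5.82). M9 against K8 gave a 1.78-fold higher level in TRP1high (1.57 to 2.01) and a 2.73-fold lower level in TRP1low (2.50 to 2.98). The gene lies on chromosome 10 (19000910 to 19015657, minus strand).

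Nfkbie, which encodes IkB epsilon, had the same order of peptides within each receptor as Tnfaip3. It stood at 10.21 in TRP1high with M9, 9.29 in TRP1high with K8, 9.31 in TRP1low with M9 and 10.49 in TRP1low with K8. The middle libraries of that list were within counting error of each other, and the outer libraries were the high ones. With M9 against K8, Nfkbie was 1.90-fold higher in TRP1high (1.73 to 2.10) and 2.26-fold lower in TRP1low (2.04 to 2.50). It lies on chromosome 17 (45555703 to 45563169, plus strand).

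Nfkbia, which encodes IkB alpha, stood at 11.52 in TRP1high with M9, 11.14 in TRP1high with K8, 11.09 in TRP1low with M9 and 11.98 in TRP1low with K8. It was 1.30-fold higher with M9 than with K8 in TRP1high (1.23 to 1.38) and 1.86-fold lower in TRP1low (1.75 to 1.96). Nfkbid, which encodes IkB-NS, stood at 9.58 with M9 and 9.58 with K8 in TRP1high, and at 9.09 with M9 and 10.05 with K8 in TRP1low. The TRP1high libraries of Nfkbid were within counting error of each other, and in TRP1low it was 1.95-fold lower with M9 (1.74 to 2.18). Nfkbia lies on chromosome 12 (55489410 to 55492647, minus strand) and Nfkbid on chromosome 7 (30421732 to 30428746, plus strand).

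Bcl3 was the 1 member of 10 with a 2-fold or larger peptide difference of the same direction in both receptors. It stood at 8.45 in TRP1high with M9, 9.49 in TRP1high with K8, 7.53 in TRP1low with M9 and 9.73 in TRP1low with K8, so both M9 libraries were below both K8 libraries. With M9 it was 2.06-fold lower in TRP1high (1.81 to 2.35) and 4.60-fold lower in TRP1low (3.89 to 5.48). Such a difference, lower in both, was found for 1.57% of all genes tested. Bcl3 lies on chromosome 7 (19808462 to 19822770, minus strand), where 2 antisense gene models overlap it, and neither model is a row of the tables.

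In a sorted population sequenced in bulk, fewer cells of a type and less RNA per cell cannot be told apart, and B cells also express NF-kB genes. The 20 B cell markers summed to 804 normalized counts with M9 and 3120 with K8 in TRP1high, and to 1451 with M9 and 2611 with K8 in TRP1low. With M9, 17 of 20 were at least 2-fold lower in TRP1high, and 9 were lower and 3 higher in TRP1low. Their sum was therefore lower with M9 in both receptors, as Bcl3 was, and the part of B cell RNA in the Bcl3 values was not tested. In TRP1high with M9, the library in which Nfkb2, Rel, Rela and Relb were highest, 4 of the 20 were at 0 (among them the defining marker Pax5), and 12 were above the floor of 3 reads, from Pou2af1 at log2 8.37 and Cd72 at 7.44 downwards. Above the floor were 20 in TRP1high with K8 and 18 in each TRP1low library, and the part of B cell RNA in the subunit values was not tested. Of 13 myeloid or dendritic cell markers, 10 were in the tables, and they summed to 182 and 95.6 normalized counts in TRP1high with M9 and with K8, and to 117 and 367 in TRP1low with M9 and with K8. Csf1r was at 0 in TRP1high with K8. Lyz2 and Itgam stood at log2 5.53 and 4.03 in TRP1low with K8, where Csf1r, at 2.01, was under the floor of 3 reads (log2 2.35). The sum of the myeloid or dendritic cell markers was highest where the 5 inhibitors were highest, and its part in their values was not tested.

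Levels can be set between genes only per length, here as normalized counts per kb of exon. On this scale Nfkb1 was the highest member in TRP1high with M9 (3353), TRP1high with K8 (3811) and TRP1low with M9 (2423), and Nfkbia was next (1854, 1425 and 1381). In TRP1low with K8 the order was turned, with Nfkbia at 2564 and Nfkb1 at 1538 per kb. The 5 subunits summed to 6751 per kb in TRP1high with M9, 5941 in TRP1high with K8, 4859 in TRP1low with M9 and 3801 in TRP1low with K8. The 5 inhibitors summed to 3021, 2496, 2146 and 4522 per kb in the same libraries. The summed inhibitor level was 0.448, 0.420 and 0.442 of the summed subunit level in TRP1high with M9, TRP1high with K8 and TRP1low with M9, and 1.19 of it in TRP1low with K8. Without Nfkbia, the most abundant of the 5 inhibitors, these ratios were 0.173, 0.180, 0.157 and 0.515. The sums are of transcripts and leave out Nfkbib. They count the precursor genes Nfkb1 and Nfkb2 wholly as subunits. The nuclear IkB-like genes Nfkbid and Bcl3 and the enzyme gene Tnfaip3 are counted as inhibitors, so the ratios depend on this grouping. A balance between inhibitor and subunit proteins was not measured.

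**Figure D2:**
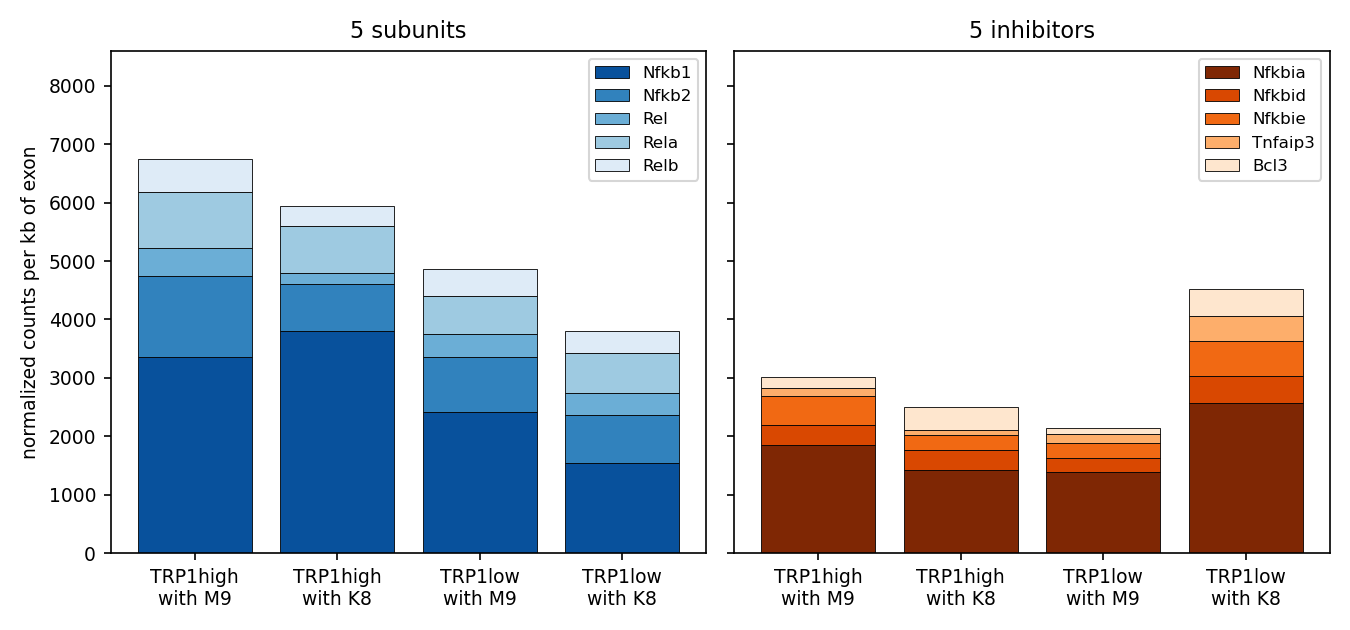
Summed level of the 5 subunits (left) and the 5 inhibitors (right) in normalized counts per kb of exon, with 1 stacked bar per library and 1 shade per gene. The subunit bars run from 6751 in TRP1high with M9 to 3801 in TRP1low with K8, while the inhibitor bar of TRP1low with K8 is the tallest, at 4522.

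The make-up of the subunit transcripts also differed between libraries. Nfkb1 made up 49.7% of the summed subunit level in TRP1high with M9, 64.1% in TRP1high with K8, 49.9% in TRP1low with M9 and 40.5% in TRP1low with K8. Rel made up 6.96%, 3.26% and 7.96% in the first 3 of these libraries, and its share was highest in TRP1low with K8. Rela varied less, between 13.5% and 17.9%. The K8 libraries thus held the highest and the lowest share of Nfkb1, and the M9 libraries had nearly equal shares.

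The first comparison asks how the M9 and the K8 peptide differ within each receptor. In TRP1high, 2 of 10 members were at least 2-fold apart with M9 against K8 (Rel higher and Bcl3 lower), beside 9.87% of all genes tested (5.14% higher and 4.73% lower). In TRP1low, 3 of 10 were at least 2-fold apart (Nfkbie, Tnfaip3 and Bcl3, all lower with M9), beside 15.1% of all genes (7.67% higher and 7.43% lower). The median difference of the members was 0.57 in TRP1high, beside -0.02 over all genes, and -0.47 in TRP1low, beside 0.02 over all genes. By role, 4 of 5 subunits were above 0 in each receptor, while 3 of 5 inhibitors were above 0 in TRP1high and 0 of 5 in TRP1low. Of all genes tested, 45.8% were above 0 in TRP1high and 51.8% in TRP1low.

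The second comparison asks how the receptors differ under the same peptide. With M9, 0 of 10 members were at least 2-fold apart between TRP1high and TRP1low, beside 12.9% of all genes tested, and 9 of 10 were above 0 (46.9% of all genes) with a median of 0.48 (all genes -0.03). Tnfaip3 was the exception at -0.10. With K8, 3 of 10 were at least 2-fold apart, beside 18.9% of all genes: Nfkb1 was higher in TRP1high, and Nfkbie and Tnfaip3 were lower. The members' median with K8 was -0.35 (all genes 0.00), and all 5 inhibitors were lower in TRP1high than in TRP1low, while 49.1% of all genes were above 0.

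**Figure D3:**
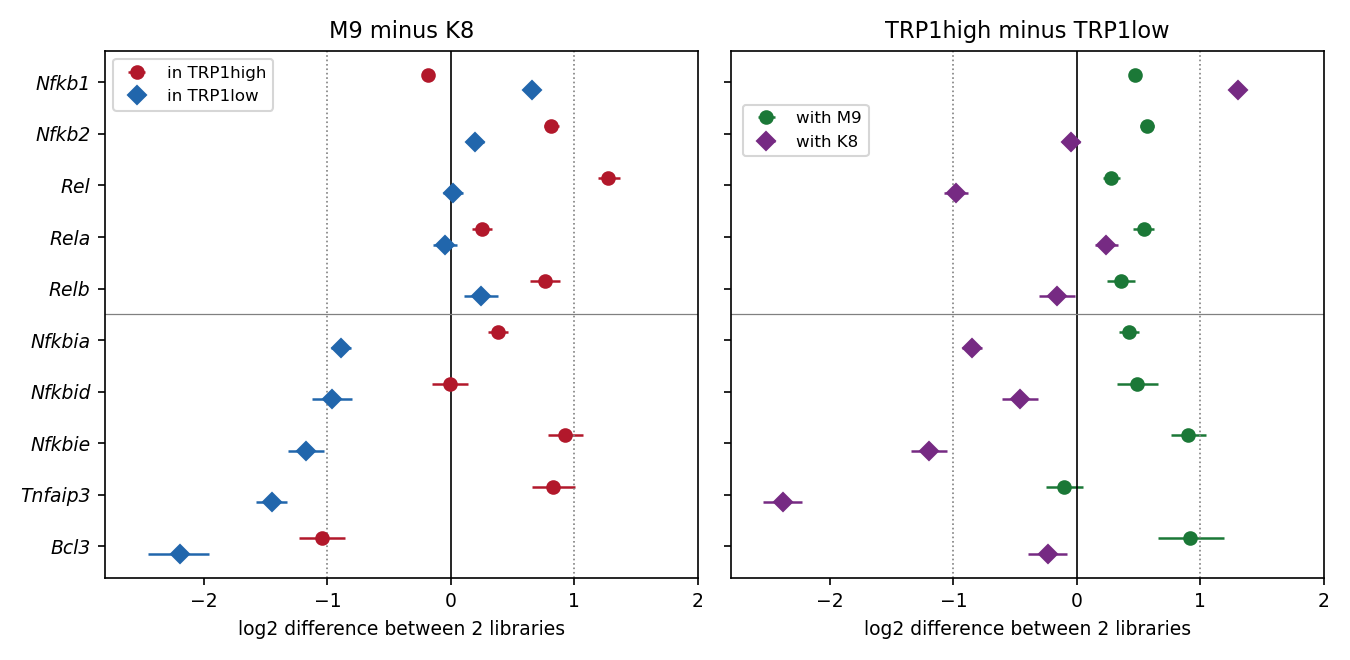
Log2 difference of each member between 2 libraries, for M9 minus K8 (left) and for TRP1high minus TRP1low (right), with 95% counting intervals as bars and dotted lines at 2-fold. In TRP1low the 5 inhibitors lie left of 0, from -0.89 to -2.19, and with M9 every member but Tnfaip3 lies right of 0 in the receptor comparison.

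The peptide difference itself was compared between receptors, as the difference in TRP1high minus that in TRP1low. Of 10 members, 5 had peptide differences at least 1 apart on the log2 scale (Rel, Nfkbia, Nfkbie, Tnfaip3 and Bcl3). In all 5 the peptide difference was the higher in TRP1high. Bcl3 was lower with M9 in both receptors, and by less in TRP1high. Of all genes, 18.7% were this far apart in either direction, 9.07% with the higher difference in TRP1high and 9.68% in TRP1low. The differences were 2.28 for Tnfaip3 (2.06 to 2.49, a 95% normal interval for counting error on the log scale), 2.10 for Nfkbie (1.90 to 2.30), 1.27 for Nfkbia (1.16 to 1.39), 1.26 for Rel (1.14 to 1.38) and 1.15 for Bcl3 (0.85 to 1.46). Nfkb1 was the member below 0, at -0.84 (-0.90 to -0.78). The members' median was 1.05 and that of all genes was -0.06. With a limit of 1.5-fold in place of 2-fold, 5 members were higher with M9 in TRP1high (10.1% of all genes) and 1 was lower (9.54%), 19.6% of all genes being past it in either direction. In TRP1low, 1 was higher (13.9%) and all 5 inhibitors were lower (13.1%), with 27.0% in either direction. Between receptors, 2 members were higher in TRP1high with M9 (14.1% of all genes) and 0 were lower (11.8%), with 25.9% in either direction. With K8, 1 was higher (17.5%) and 4 were lower (15.8%), with 33.2% in either direction. Across receptors at this limit, 0 members were higher with M9 in both (3.79%), 1 was lower in both (Bcl3, 3.52%) and 2 had opposite directions (Nfkbie and Tnfaip3, 2.89%). Across peptides, 0 were higher in TRP1high with both (7.35%), 0 were lower with both (5.22%) and 1 had opposite directions (Nfkbie, 2.60%). At 2-fold, 0 members were higher in TRP1high with both peptides (3.24%), and 0 had opposite directions between receptors for the peptide (1.14%) or between peptides for the receptor (1.06%). The peptide difference was 1.5-fold or more higher in TRP1high than in TRP1low for 7 members (14.6%) and lower for 1 (16.5%). Of all genes, 31.1% were this far apart in either direction. This contrast of peptide differences uses all 4 libraries and has no residual, so it could not be tested.

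Across both receptors, limma with an additive model of receptor and peptide called 0 members and 0 of 16102 genes at a Benjamini-Hochberg adjusted p under 0.05, for the peptide and for the receptor alike. At an unadjusted p under 0.05 it found 1 member for the peptide, beside 8.33% of all genes (1342), and 0 members for the receptor, beside 12.7% (2044). That member was Bcl3, with a mean log2 difference of -1.62 (SE 0.42), lower with M9 in 2 of 2 receptors, and a limma Benjamini-Hochberg adjusted p of 0.60. For the receptor, the smallest adjusted p of a member was that of Nfkb1, at 0.89 (SE 0.33), higher in TRP1high with 2 of 2 peptides, with a limma adjusted p of 0.42. The model has 1 residual degree of freedom, and its p measures how unlike the 2 pairs of libraries are.

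Each member's nearest other member was sought by the same root mean square distance of centred log2 values over the 4 libraries. Nfkbia and Nfkbid were nearest to each other (0.18), and Nfkbie was nearest to Nfkbia (0.22), Tnfaip3 to Nfkbie (0.55) and Bcl3 to Nfkbid (0.59). Rel was nearest to Relb (0.30), and Nfkb1 to Rela (0.38). Every inhibitor was thus nearest to another inhibitor and every subunit to another subunit. Among 10046 other genes averaging 100 or more normalized counts, those nearest to Tnfaip3 were Pdgfb (0.17), a growth factor chain, Dnajc12 (0.19), a co-chaperone, and Ctnnal1 (0.19).

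Upstream of the inhibitors, genes of the receptor-to-kinase relay were followed as a list. Of 11 genes that act between the T cell receptor and the IkB kinase, 1 was higher with M9 by 2-fold or more in both receptors (1.58% of all genes). That gene was Malt1, a protease of the relay, which was 1.33 and 1.78 higher with M9 in TRP1high and TRP1low on the log2 scale. The median of this list was -0.04 in TRP1high and 0.01 in TRP1low for M9 against K8.

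Of 5 IkB kinase subunits and related kinases, 0 were at least 2-fold apart the same way in both receptors (1.58% of all genes higher and 1.57% lower) or with both peptides (3.24% higher and 2.29% lower). Tbk1, an IkB-kinase-related enzyme, had differences of -0.89 and -0.79 for M9 against K8, and Ikbke, its relative, 0.05 and -1.06. The list's medians were -0.18 and -0.38. Chuk, Ikbkb and Ikbkg, the core kinase subunits, differed by less than 2-fold in each of the 4 comparisons.

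Among 11 regulators of the non-canonical pathway, Tnfrsf4, the costimulatory receptor OX40, was higher with M9 in both receptors (2.24 in TRP1high and 2.85 in TRP1low), and higher in TRP1high with both peptides (1.31 with M9 and 1.92 with K8). Map3k14, which encodes the NF-kB-inducing kinase, was 1.55 and 1.68 higher in TRP1high with M9 and with K8. No gene of this list that reached 10 normalized counts in each pair was at least 2-fold lower in both pairs of either comparison (1.57% and 2.29% of all genes). Cd40, at -2.31 in TRP1high and -3.94 in TRP1low for M9 against K8, did not reach that count in TRP1high. The list's medians for M9 against K8 were 0.11 in TRP1high and -0.13 in TRP1low.

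Further inhibitors of the pathway outside the 10 members were followed in 2 lists. Of 4 other IkB genes and 14 measured ubiquitin editors and negative regulators, 0 were at least 2-fold apart the same way in both receptors or with both peptides, beside the same low shares of all genes (1.58% and 1.57%, and 3.24% and 2.29%). Nfkbib, which encodes IkB beta, was at 11.57 and 11.14 with M9 and K8 in TRP1high, and at 11.51 and 11.24 in TRP1low. Nfkbiz, a nuclear IkB gene, was 0.30 and 0.25 higher with M9. Cyld, a deubiquitinase, was lowest in TRP1high with M9 (11.32) and highest in TRP1low with K8 (12.51), with peptide differences of -0.51 and -0.72. Tnip3, a partner of the Tnfaip3 product, was highest in TRP1low with M9 (11.16) and lowest in TRP1low with K8 (9.19), opposite to Tnfaip3 in that receptor. The medians for M9 against K8 were 0.37 and 0.01 in the IkB list, and 0.03 and -0.23 in the ubiquitin editor list.

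Of 28 textbook NF-kB target genes, 2 were higher by 2-fold or more with M9 in both receptors (1.58% of all genes), and 0 were lower (1.57%). Ccl3 and Ccl4, chemokines of activated T cells, were these 2, with differences of 3.44 and 1.68 for Ccl3 and 2.82 and 2.03 for Ccl4. Between receptors with K8, 11 targets were at least 2-fold lower in TRP1high than in TRP1low, beside 8.35% of all genes, and 3 were higher, beside 10.6%. With M9, 0 were lower (5.58% of all genes) and 2 were higher (7.37%). Bcl2a1a, at -1.07 with M9 and -1.20 with K8, had under 10 normalized counts and is not among those counted. The list's median was -0.59 with K8 and -0.07 with M9. The list was chosen with earlier results of these data known.

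Cd83 and Traf1 had the peptide order of Tnfaip3 and Nfkbie within each receptor, and the targets in this paragraph were picked after their values were seen. Cd83, a surface protein of activated lymphocytes, stood at 10.98 in TRP1high with M9, 9.88 in TRP1high with K8, 9.85 in TRP1low with M9 and 11.24 in TRP1low with K8. Traf1, a signalling adaptor, stood at 11.45, 10.75, 11.18 and 12.15 in the same libraries. Gadd45b, a stress-response gene, was lowest in TRP1high with M9 (9.13) and highest in TRP1low with K8 (11.18). Other targets went the opposite way: Lta, Il2ra and Irf4 were the 3 that were 2-fold or more higher in TRP1high than in TRP1low with K8, with TRP1high minus TRP1low differences of 2.02, 2.81 and 1.19. Bcl2a1b and Bcl2a1d, survival genes with near-identical copies, were 1.27 and 1.81 lower on the log2 scale in TRP1high than in TRP1low with K8, and their values are uncertain because reads can be split between copies. Cd83 and Cxcl10 are also expressed by dendritic cells, whose markers were highest in TRP1low with K8, and the part of such cells was not tested.

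**Figure D4:**
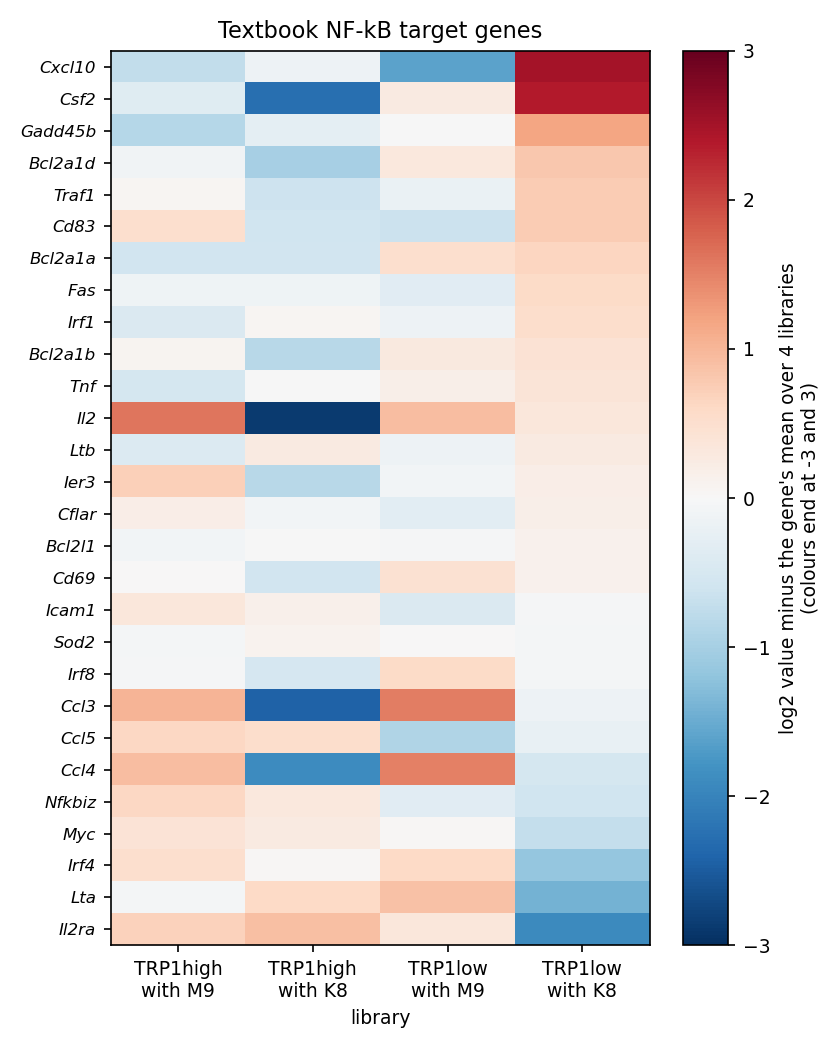
Log2 level of 28 NF-kB target genes (rows) in each library (columns), after the mean of each gene over the 4 libraries was taken away, with red above and blue below the mean. Rows are ordered by the value in TRP1low with K8, from Cxcl10 at the top to Il2ra at the bottom.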

How the data were processed

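The values deposited by the authors are log2 normalized counts, per the file headers, with 1 value per gene symbol and library. The submitters' processing notes name Salmon 0.8.2, DESeq2 1.20.0 and the build mm10 without settings. The smallest value was 0, and low values lay at multiples of 0.989 to 1.37 normalized counts per library, so values were read as log2(normalized count + 1) and divided by that step to estimate reads. Between 56.2% and 56.4% of values up to 50 lay within 0.01 of a whole read, so no count test was run. Genes averaging 1 or more normalized counts were tested.

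Members were compared as log2 differences between single libraries, and called apart at 2-fold where 1 of the libraries compared held 10 or more normalized counts. limma 3.58.1 in R 4.3.3 fitted the additive model, with eBayes. Its fit was checked on simulated data with additive shifts only, which does not show whether it could call the members here. Exon lengths and positions are from GENCODE M21, as the union of exons of protein-coding transcripts. The members and lists were chosen with earlier results of these data known. In the lists, genes at least 2-fold apart the same way in both pairs were named, or else the 2 with the largest mean peptide difference. Alternatives were another added constant, filter, scaling, fold limit and variance model. Some genes of the lists are not reported here.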

Additional observations from a re-analysis of the deposited data

Results flagged for a closer look

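Nfkbie and Tnfaip3 had peptide differences of opposite sign in the 2 receptors, each at least 1.5-fold. For M9 minus K8, Nfkbie was at 0.93 in TRP1high and -1.17 in TRP1low, and Tnfaip3 at 0.83 in TRP1high and -1.45 in TRP1low. Nfkbie also had receptor differences of opposite sign, with TRP1high minus TRP1low at 0.90 with M9 and -1.20 with K8. Each of these differences rests on 2 libraries, and the difference between them was not tested. Opposite peptide differences of at least 1.5-fold were seen in 2.89% of all genes tested, and opposite receptor differences in 2.60%.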

How the results depend on the processing

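No paired analysis was possible because each group has 1 library and the labels carry no replicate numbers. With an added constant of 10, no filter, a mean of at least 10 normalized counts, or centring on the median, the counts of members at least 2-fold apart were the same in all 5 comparisons. Scaling by totals added Nfkbid to the lower members in TRP1low, for 4 in all, and moved no other of these counts. At a limit of 1.5-fold, 6 members were apart with M9 against K8 in TRP1high (19.6% of all genes), 6 in TRP1low (27.0%), 2 between receptors with M9 (25.9%), 5 with K8 (33.2%), and 8 in the difference between peptide differences (31.1%). The other constant and scalings moved single differences of members by at most 0.066 on the log2 scale, and the sign changed only for Nfkbid in TRP1high (to 0.02 with median centring) and Rel in TRP1low (to -0.04 with total scaling). With eBayes trend on, limma called 5 genes for the peptide and 260 for the receptor, and with the added constant of 10 it called 32 for the receptor, with 0 members among them, and the cause was not tested. Depth limits no member, since each had at least 175 estimated reads, but with 1 library per group no difference has a replicate check.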
